A study of Rattus norvegicus with 10 samples.

Results

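The core loop of the circadian clock was examined in hippocampal messenger RNA of rats with epilepsy evoked by stimulation of the amygdala. It was taken as 10 genes, the activators Clock and Bmal1 and the repressors Per1, Per2, Per3, Cry1, Cry2, Ciart, Nr1d1 and Nr1d2. For each gene the row of the count matrix whose RefSeq identifier carries its symbol was used, or the row with the highest mean count where a symbol has more than 1 row, as Nr1d1 does. All 10 genes were among the 22447 of 32041 rows with enough reads to be tested. Reads per row and rat ran from 65 to 2820 over the 10 genes.

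Male Sprague-Dawley rats, an outbred strain kept in 12 h cycles of light and dark, carried an electrode in the left lateral amygdala. In the stimulated group (rats 6 to 10) trains of pulses of 400 µA at 60 Hz, given for 30 min, evoked status epilepticus, a seizure state that was ended with injected diazepam. The sham group (rats 1 to 5) was of the same age and had electrodes but no current. All rats were anaesthetised with isoflurane after butorphanol for surgery, lived in single cages from then on, and were killed under CO2 3 months after the induction. Whether sham rats received diazepam is not given in the sources used here. The stimulated rats had spontaneous seizures by the study's methods, and the time between the last seizure and the collection of tissue is not given either. Each sample is the left hippocampus of 1 rat, in a piece holding the CA3 field and the dentate gyrus, so that p-values measure the spread between rats.

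The hour at which each rat was killed is likewise not given in the sources used here. The RNA of most of these genes cycles over the day, and a difference in the hour of collection cannot be told apart from a difference between the groups or between rats. In pieces of tissue, fewer cells of a type and less RNA per cell cannot be told apart either.

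Aligned reads per rat ran from 13552309 to 24086059 in sham and from 15586870 to 21642792 in stimulated rats. Levels are given as counts scaled to a common library size (CPM), scaled between libraries with the trimmed mean of M values. They are not divided by transcript length and are compared between rats, not between genes. Summed over the 5 of 6 listed dentate granule cell markers tested, sham rats had 367 to 449 CPM and stimulated rats 214 to 454 CPM. The 3 of 4 CA3 markers tested summed to 905 to 1106 and 997 to 1746 CPM, and the 2 of 3 CA1 markers to 110 to 193 and 49.8 to 214 CPM. Most of the CA3 sum was Chgb, with a mean of 913 CPM over the 10 rats. Its log2 fold change, stimulated over sham, was 0.45, beside 0.02 for Grik4 and 0.18 for Bok. Markers of the suprachiasmatic nucleus, the seat of the master clock in the hypothalamus, were at low levels. The 4 of 7 tested summed to 6.16 to 8.38 CPM (sham) and 6.24 to 10.5 CPM (stimulated). Most of that sum was Vip, with a mean of 5.53 CPM over the 10 rats, beside 1.45 for Rorb, 0.63 for Avp and 0.36 for Six6. Their log2 fold changes were 0.17 for Vip, 0.10 for Rorb, 1.43 for Avp and -0.11 for Six6. Sums for neurons were 2139 to 2395 and 1855 to 2483 CPM, for microglia 251.7 to 318 and 270 to 396 CPM, for oligodendrocytes 2350 to 3391 and 1890 to 3166 CPM, and for choroid plexus 3.18 to 16.8 and 6.2 to 34.1 CPM.

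In the core loop, the proteins CLOCK and BMAL1 pair and switch on the Period, Cryptochrome, Ciart and Nr1d genes through a DNA element called the E-box. The PERIOD and CRYPTOCHROME proteins and CIART (also called CHRONO) then return to block that pair, which closes a loop of about a day. In a second loop, the nuclear receptors REV-ERBα and REV-ERBβ, the products of Nr1d1 and Nr1d2, repress Bmal1 at sites that the ROR receptors use to activate it. Neurons and glia of the hippocampus hold such clocks, which are set by the suprachiasmatic nucleus, glucocorticoids and feeding, and Per1 and Per2 are in addition switched on by neuronal activity.

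Clock proteins act through short DNA elements, many of them just before the start of a gene. RefSeq promoter windows of the GRCr8 assembly, 250 bases before and 50 bases after the annotated start, were at hand for 9 of the 10 genes, in 11 windows. GRCr8 is a later build than the one the reads were aligned to, and it was used for sequence alone. The windows were searched on both strands for the E-box CACGTG, its variant CACGTT, the D-box TTATGTAA or TTACGTAA that DBP, TEF and NFIL3 bind, the ROR and REV-ERB site TAGGTCA, and the cyclic AMP response element TGACGTCA. These motifs do not overlap one another in the stretches printed. Of all 33469 windows, 6.42% held CACGTG, 4.83% CACGTT, 1.01% a D-box, 2.63% TAGGTCA and 1.83% TGACGTCA. Of the 9 genes, 5 held at least 1 motif. The share of all windows with at least 1 of the motifs was not computed, so this count has nothing beside it. The windows of Clock, Per1, Per3 and Nr1d2 held no motif, and no window of the 9 genes held TGACGTCA. The stretches of the 5 genes are shown with the motif in capitals, 5′ to 3′ on the strand of the gene.
Ciart, chr2:186112250-186112351, minus strand: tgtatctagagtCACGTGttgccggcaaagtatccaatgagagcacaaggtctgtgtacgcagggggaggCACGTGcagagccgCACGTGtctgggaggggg
Bmal1, chr1:176766300-176766327, plus strand: gaaggcagaaagTAGGTCAgggacggag
Nr1d1, chr10:84229628-84229657, minus strand: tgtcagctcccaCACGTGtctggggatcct
Nr1d1 second start, chr10:84231969-84231998, minus strand: cgcatagagctcAACGTGcccgctgctgga
Per2, chr9:99497038-99497197, minus strand: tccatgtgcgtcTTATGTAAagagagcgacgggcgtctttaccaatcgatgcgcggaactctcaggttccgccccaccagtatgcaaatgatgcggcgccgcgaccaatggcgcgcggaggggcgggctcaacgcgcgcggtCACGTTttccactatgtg
Cry2, chr3:98860632-98860661, minus strand: acacatggtgggAACGTGagggggcggggc

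Ciart held 3 E-boxes, at bases -93 to -88, -35 to -30 and -21 to -16 counted from the annotated start, where -1 is the base just before it. Nr1d1 held 1 E-box, at bases -191 to -186 of one of its starts. Bmal1 was the gene with TAGGTCA, at bases -16 to -10. In Per2 the E-box variant stood at bases -62 to -57 and the D-box at bases -192 to -185. The letters AACGTG in Cry2 and at the second start of Nr1d1 are the variant CACGTT read on the opposite strand. A match of letters is a description and does not show that a factor binds there.

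The groups were compared over all tested rows with edgeR (quasi-likelihood test). None of the 10 genes passed an adjusted p-value under 0.05, beside 0% of the tested rows. With DESeq2, limma-voom and the likelihood ratio test of edgeR 0 of 10 passed as well, beside 0.147%, 0% and 0.53% of the tested rows. At an unadjusted p-value under 0.05 there were 5 of 10, beside 9.86% of the tested rows, and 4 to 6 of 10 with the other tools, scalings and filters. Of these, 2 were higher in stimulated rats (Bmal1 and Cry1, beside 6.7% of rows) and 3 were lower (Nr1d1, Nr1d2 and Ciart, beside 3.16% of rows). For 1 of the 10 genes, Nr1d2, sham and stimulated values did not overlap, beside 1.29% of rows. The median log2 fold change of the 10 genes was 0.13, with 6 above and 4 below 0. Their median absolute log2 fold change was 0.353, beside 0.15 over all tested rows and 0.117 over the 14442 rows with a mean of at least 5 CPM.

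**Figure D1:**
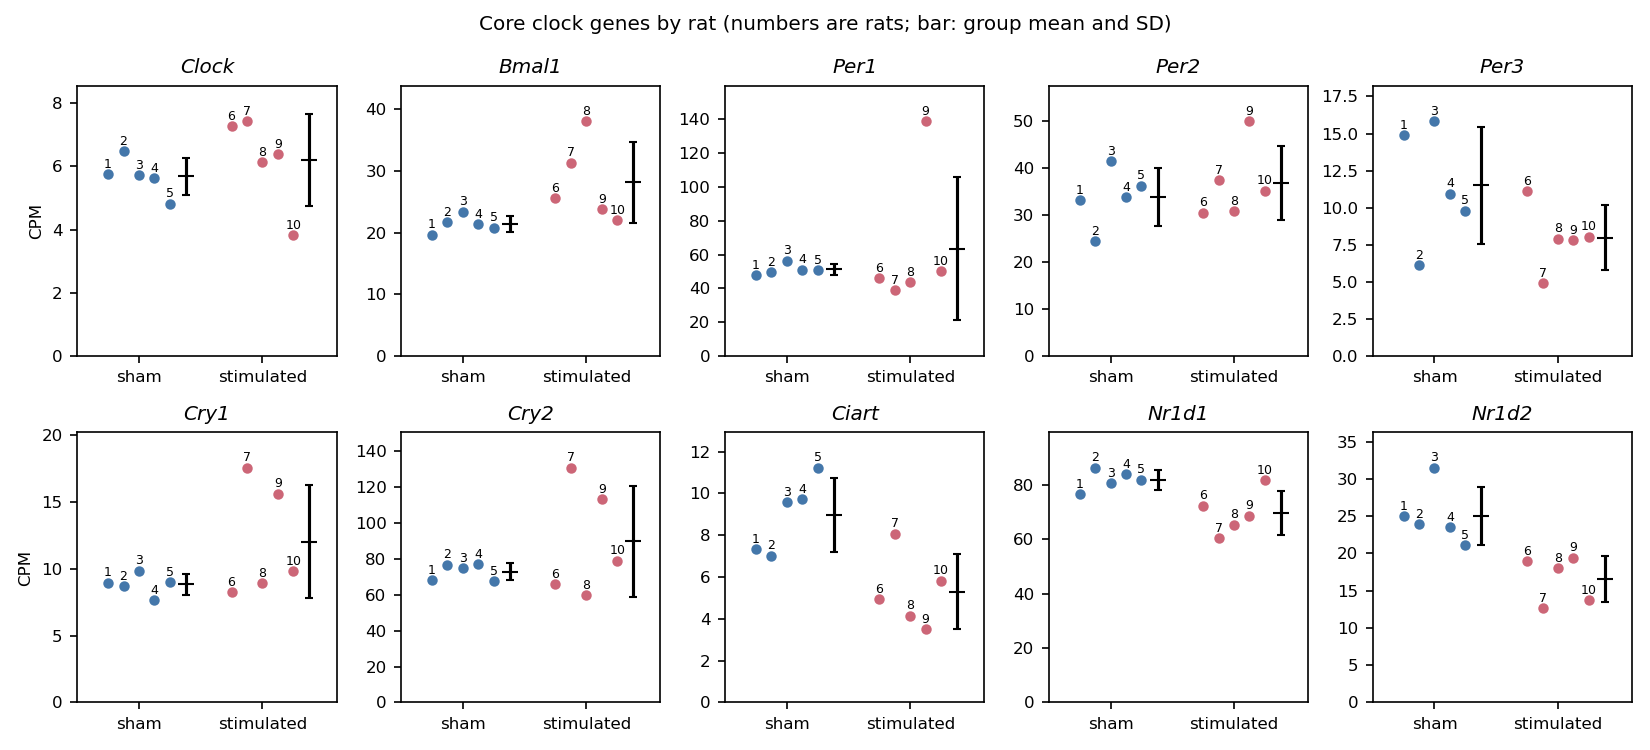
Level of each core clock gene in CPM (vertical axes, each from 0) in the 5 sham and 5 stimulated rats. Each point is a rat and carries its number, and the bar beside a group gives its mean and SD. Nr1d2 is the panel in which every stimulated rat (12.6 to 19.4 CPM) lies below every sham rat (21.1 to 31.5 CPM), and rat 9 stands far above the others for Per1.

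Bmal1 encodes the activator whose own RNA is the target of the second loop. It was counted at 19.7, 21.7, 23.4, 21.3 and 20.8 CPM in sham rats 1 to 5 and at 25.6, 31.3, 38.04, 23.8 and 22.0 CPM in stimulated rats 6 to 10. All stimulated rats but rat 10 lay above the highest sham rat, and the sham rats lay close together. The means were 21.4 ± 1.37 and 28.1 ± 6.55 CPM (SD, n = 5 each). The log2 fold change was 0.40 (SE 0.141, 95% interval 0.09 to 0.70) with an unadjusted p of 0.0146 and an adjusted p of 0.415 in edgeR. The exact permutation test of log2 CPM over all assignments of rats to groups, two-sided, gave p = 0.0159, where the smallest possible value is 0.00794. Without rat 8, the rat with the highest level, the log2 fold change was 0.25 and the unadjusted p 0.0595.

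Clock, the partner of BMAL1 in the activating pair, was counted at 4.82 to 6.49 CPM in the sham group and at 3.82 to 7.43 CPM in rats 6 to 10. The groups overlapped, with rats 6 and 7 above and rat 10 below every sham rat. The means were 5.68 ± 0.592 and 6.21 ± 1.45 CPM (SD, n = 5 each). Its log2 fold change was 0.13 (SE 0.182, 95% interval -0.26 to 0.53, adjusted p = 0.845), and the exact permutation test gave p = 0.643. With a rat left out the log2 fold change ranged from 0.05 (without rat 7) to 0.27 (without rat 10), and without rat 10 the exact permutation test gave p = 0.0317. Npas2, which can stand in for CLOCK in the forebrain, had means of 22.3 ± 2.76 and 19.0 ± 6.66 CPM (SD, n = 5 each) and differed by -0.24 on the log2 scale (SE 0.231, adjusted p = 0.766). Rat 7 held the lowest Npas2 level, 7.98 CPM, and without it the difference was -0.05.

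Nr1d2 encodes REV-ERBβ, a repressor of Bmal1. It was counted at 25.005, 23.9, 31.5, 23.5 and 21.1 CPM in sham rats 1 to 5 and at 19.0, 12.6, 18.0, 19.4 and 13.8 CPM in stimulated rats 6 to 10. The groups did not overlap, and the lowest values were those of rats 7 and 10. The means were 24.996 ± 3.91 and 16.6 ± 3.13 CPM (SD, n = 5 each), 1.51-fold lower in stimulated rats. The log2 fold change was -0.59 (SE 0.149, 95% interval -0.91 to -0.27) with an unadjusted p of 0.00137 and an adjusted p of 0.376 in edgeR. The exact permutation test gave p = 0.00794, the smallest it can give.

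Nr1d1 encodes REV-ERBα, the other repressor of Bmal1. It was counted at 76.6, 86.2, 80.6, 83.9 and 81.8 CPM in sham rats 1 to 5 and at 72.3, 60.4, 65.3, 68.6 and 81.7 CPM in stimulated rats 6 to 10. Rats 6 to 9 lay below every sham rat and rat 10 lay among them. The means were 81.8 ± 3.63 and 69.7 ± 8.02 CPM (SD, n = 5 each). The log2 fold change of -0.23 (SE 0.0911, 95% interval -0.43 to -0.04) was smaller in size than that of Nr1d2, with an unadjusted p of 0.0237 and an adjusted p of 0.432. The exact permutation test gave p = 0.0238.

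A second row of the matrix also carries the symbol Nr1d1, and both rows probably hold many of the same reads. The sham mean of this row was 76.1 ± 3.14 CPM and the stimulated mean 62.2 ± 7.92 CPM (SD, n = 5 each). In that row the groups did not overlap, with a lowest sham value of 71.9 CPM and a highest stimulated value of 69.6 CPM. Its log2 fold change was -0.29 (SE 0.0975, adjusted p = 0.409). In the RefSeq annotation of GRCr8 the span of Nr1d1 overlaps that of Thra, a thyroid hormone receptor gene that has a row of its own, and Cry1 overlaps a protein-coding locus with no gene name. Clock, Per2 and Cry2 overlap long non-coding loci. The use of strand and the counting of shared reads were not stated, so the levels of these 5 genes are uncertain to that extent.

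Ciart encodes a repressor of the CLOCK and BMAL1 pair, and its promoter window was the one with 3 E-boxes. It was counted at 7.33, 7.02, 9.58, 9.71 and 11.2 CPM in sham rats 1 to 5 and at 4.93, 8.08, 4.15, 3.52 and 5.83 CPM in stimulated rats 6 to 10. All stimulated rats but rat 7 lay below the lowest sham rat. The means were 8.97 ± 1.77 and 5.30 ± 1.78 CPM (SD, n = 5 each), 1.69-fold lower in stimulated rats. Its log2 fold change of -0.76 (SE 0.22, 95% interval -1.23 to -0.29) was the largest in size of the 10 genes, with an unadjusted p of 0.00393 and an adjusted p of 0.388 in edgeR. The exact permutation test gave p = 0.0238. With 65 to 268 reads per rat, Ciart was among the genes with the fewest reads of the 10.

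In stimulated rats Bmal1 had a higher mean, and its repressors Nr1d1 and Nr1d2 and the pair's repressor Ciart had lower means. These genes were therefore also set against each other within each library, which removes the scaling between libraries. Of the other repressors, Per3 had a lower mean and Per1, Per2, Cry1 and Cry2 had higher means. No ratio was formed with those. Bmal1 reads per 100 Nr1d2 reads were 78.6, 91.1, 74.3, 90.7 and 98.6 in sham rats 1 to 5 and 134.8, 248.2, 211.3, 122.3 and 159.9 in stimulated rats 6 to 10. Every stimulated rat lay above every sham rat. Per 100 Nr1d1 reads there were 25.7, 25.2, 29.0, 25.4 and 25.4 Bmal1 reads in sham rats and 35.3, 51.8, 58.3, 34.6 and 27.0 in stimulated rats. Rat 10 lay within the sham range and the other stimulated rats above it. Per 100 Ciart reads there were 268.3, 309.8, 244.3, 219.6 and 185.1 Bmal1 reads in sham rats and 518.3, 387.9, 916.9, 675.4 and 377.9 in stimulated rats, again without overlap. The ratio of the group means, stimulated over sham, was 2.02 for Nr1d2 (86.6 ± 9.96 and 175.3 ± 53.1 reads), 1.58 for Nr1d1 (26.1 ± 1.62 and 41.4 ± 13.1 reads) and 2.34 for Ciart (245.4 ± 47.4 and 575.3 ± 226 reads; SD, n = 5 each). These pairs were chosen with the levels known, so the ratios are a description with no test.

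**Figure D2:**
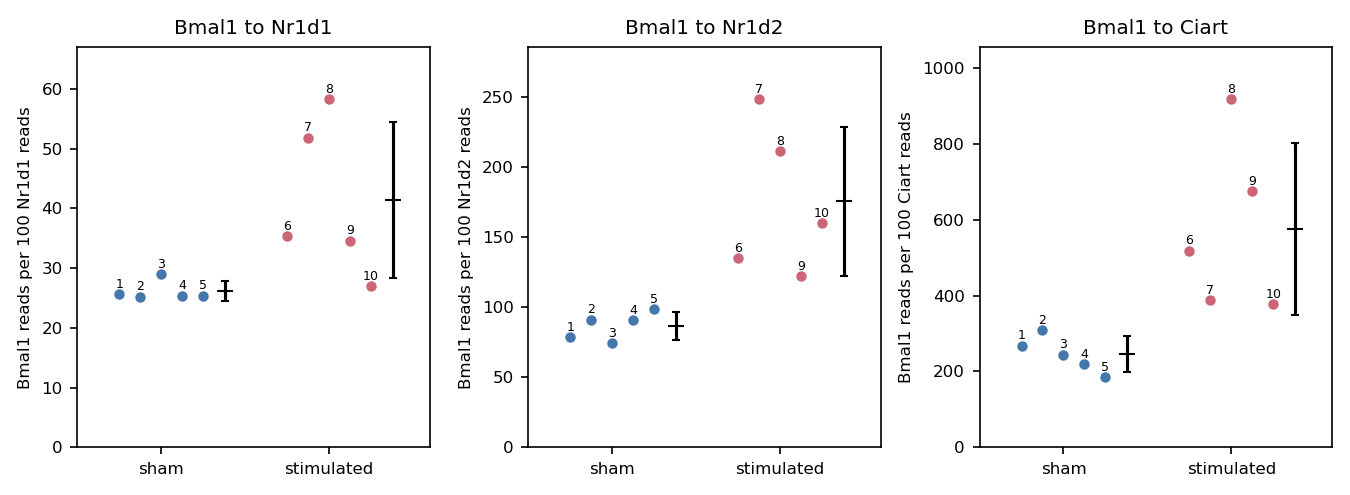
Bmal1 reads per 100 reads of Nr1d1, Nr1d2 and Ciart in the same library (vertical axes, each from 0), by group. Points are rats with their numbers, and bars are group means with SD. Against Nr1d2 and Ciart every stimulated rat lies above every sham rat, while rat 10 lies within the sham range against Nr1d1.

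Per1, a Period gene whose promoter answers to neuronal activity and to glucocorticoids, was counted at 48.0, 49.6, 56.4, 51.1 and 50.6 CPM in sham rats 1 to 5. In stimulated rats 6 to 10 it was counted at 45.9, 38.9, 43.7, 138.9 and 50.0 CPM. Rat 9 stood alone at a high level, while rats 6, 7 and 8 lay below every sham rat. The means were 51.2 ± 3.17 and 63.5 ± 42.3 CPM (SD, n = 5 each). The log2 fold change was 0.31 (SE 0.291, 95% interval -0.31 to 0.94, adjusted p = 0.751), and the exact permutation test gave p = 0.984. Without rat 9 the log2 fold change of Per1 turned to -0.20.

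Per2, the other Period gene that answers to activity, was counted at 24.3 to 41.4 CPM in the sham group and at 30.5 to 49.9 CPM in rats 6 to 10. Its highest value was also that of rat 9, the 1 stimulated rat above the sham range, and its lowest was that of sham rat 2. The means were 33.8 ± 6.18 and 36.7 ± 7.93 CPM (SD, n = 5 each). The log2 fold change was 0.12 (SE 0.157, 95% interval -0.22 to 0.46, adjusted p = 0.839), the exact permutation test gave p = 0.54, and without rat 9 the log2 fold change was -0.02.

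Per3, a Period gene that is less needed for the rhythm itself, was counted at 14.9, 6.1, 15.8, 10.95 and 9.8 CPM in sham rats 1 to 5 and at 11.1, 4.92, 7.92, 7.8 and 8.05 CPM in stimulated rats 6 to 10. The groups overlapped, with sham rat 2 below all stimulated rats but rat 7. The means were 11.5 ± 3.95 and 7.96 ± 2.2 CPM (SD, n = 5 each). Its log2 fold change was -0.53 (SE 0.251, 95% interval -1.07 to 0.0049) with an unadjusted p of 0.0518 and an adjusted p of 0.512, and the exact permutation test gave p = 0.151. Sham rat 2, which had the fewest aligned reads, held the lowest sham value of Per2, Per3 and Ciart and the highest of Clock and Nr1d1. Without it the log2 fold change of Per3 was -0.696, with an unadjusted p of 0.00801 in edgeR and an exact permutation p of 0.0317. Leaving out other rats gave -0.701 (without rat 6) to -0.394 (without sham rat 3).

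Cry1 and Cry2 encode the cryptochromes, the strongest blockers of CLOCK and BMAL1. Cry1 was counted at 8.96, 8.7, 9.85, 7.65 and 8.97 CPM in sham rats 1 to 5 and at 8.23, 17.5, 8.94, 15.6 and 9.8 CPM in stimulated rats 6 to 10. Rats 7 and 9 stood above every sham rat and rats 6, 8 and 10 lay within the sham range. The means were 8.82 ± 0.789 and 12.0 ± 4.25 CPM (SD, n = 5 each). The log2 fold change was 0.45 (SE 0.207, 95% interval 0.0048 to 0.89) with an unadjusted p of 0.0479 and an adjusted p of 0.5. The exact permutation test gave p = 0.19, and without rat 7 the log2 fold change was 0.26 and the unadjusted p 0.18.

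Cry2 showed the same high rats. It was counted at 68.4, 76.8, 74.9, 77.0 and 67.5 CPM in sham rats 1 to 5 and at 65.8, 130.9, 59.7, 113.6 and 79.1 CPM in stimulated rats 6 to 10. Rats 7, 9 and 10 lay above and rats 6 and 8 below every sham rat. The means were 72.9 ± 4.65 and 89.8 ± 31.0 CPM (SD, n = 5 each). Its log2 fold change was 0.30 (SE 0.185, 95% interval -0.10 to 0.70, adjusted p = 0.606), and the exact permutation test gave p = 0.357. Without rat 7 the log2 fold change was 0.11 and without rat 9 it was 0.20, while without rat 8 it was 0.40 with an unadjusted p of 0.0319.

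**Figure D3:**
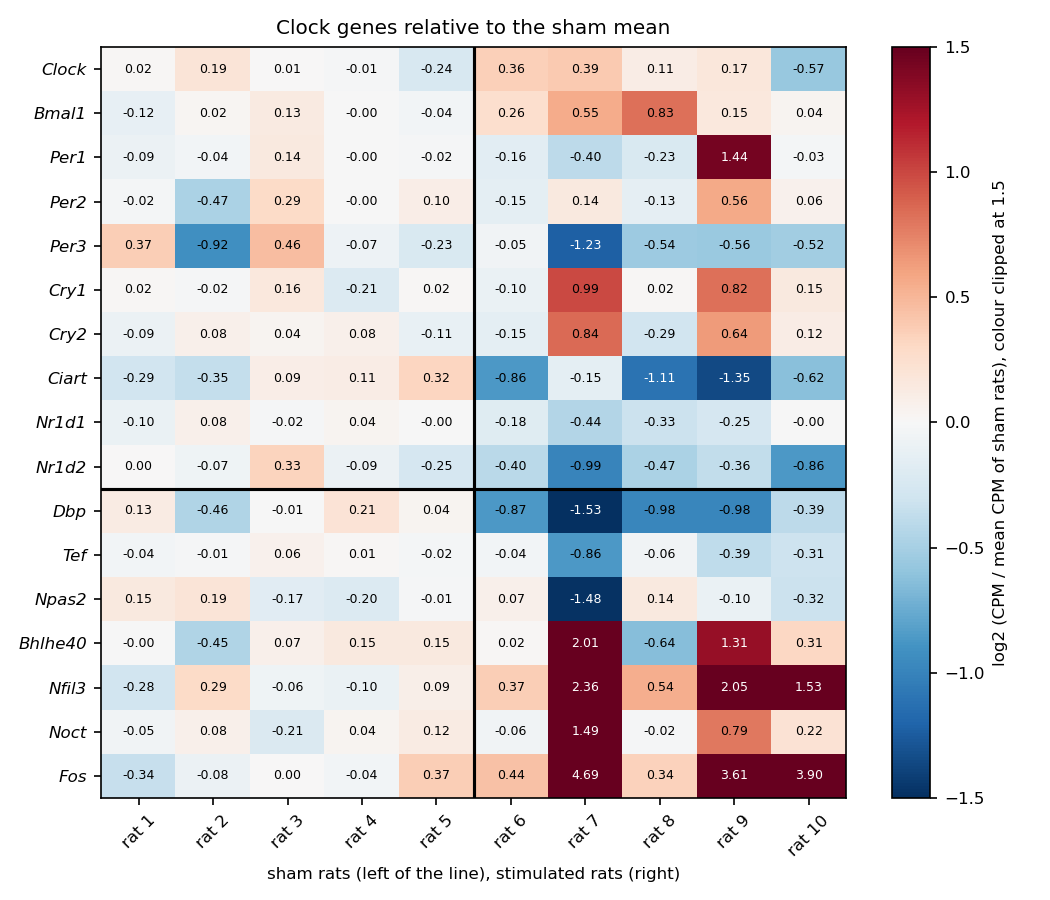
Log2 ratio of each rat's CPM to the mean CPM of the sham rats (colour and printed value, colour clipped at 1.5) for the 10 core clock genes above the horizontal line and for 6 further clock genes and Fos below it. Columns are rats, with sham left of the vertical line. The rows of Per3, Ciart, Nr1d1 and Nr1d2 and, below the line, Dbp and Tef are below 0 in all stimulated rats (Nr1d1 by as little as -0.0021 in rat 10), Cry1 and Cry2 are high in rats 7 and 9, and Fos is high in rats 7, 9 and 10.

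The stimulated rats differed more among themselves than the sham rats did. The SD of log2 CPM was larger in the stimulated group for 9 of the 10 genes, all but Per3, beside 69.5% of all tested rows and 73.3% of rows with a mean of at least 5 CPM. The median SD of the 10 genes was 0.14 in sham and 0.398 in stimulated rats. Over rows of at least 5 CPM the medians were 0.156 and 0.226. The widest spread was that of Per1 in stimulated rats, with an SD of 0.746 beside 0.0871 in sham, and rat 9 was the rat that stood apart.

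Other gene lists also differed between these rats. None of their genes passed an adjusted p under 0.05 in the quasi-likelihood test. At an unadjusted p under 0.05 in that test, 6.7% of all tested rows were higher and 3.16% lower in stimulated rats. The 9 immediate early genes listed, which neurons switch on within minutes of firing, were all tested and all higher in stimulated rats at an unadjusted p under 0.05, with no marker at 0 in every rat. Their summed level was 132 to 172 CPM in sham rats and 183, 654, 128, 1621 and 652 CPM in stimulated rats 6 to 10. The highest sum was that of rat 9, which also held the highest Per1 and Per2, while rat 10 had a sum near that of rat 7 and a Per1 level within the sham range. Rats 6 and 8 had sums of 183 and 128 CPM, just above and just below the sham range. They had Ciart at 4.93 and 4.15 CPM, Nr1d2 at 19.0 and 18.0 CPM and Bmal1 at 25.6 and 38.04 CPM. Each of these values lay outside the range of the sham rats. Rats 7, 9 and 10 had Ciart at 8.08, 3.52 and 5.83 CPM and Nr1d2 at 12.6, 19.4 and 13.8 CPM. Their Bmal1 levels were 31.3, 23.8 and 22.0 CPM. Of these, Ciart in rat 7 and Bmal1 in rat 10 lay within the sham range. The 6 astrocyte markers, 4 of them higher at an unadjusted p under 0.05, summed to 2511 to 3091 CPM in the sham group and to 2603, 7858, 2677, 3596 and 6794 CPM in rats 6 to 10. Most of that sum was Gfap, with a mean of 2460 CPM over the 10 rats and a log2 fold change of 1.06. Gja1 differed by 0.07 on the log2 scale, and Aldh1l1 was lower, at -0.27. The 5 endothelial markers, 3 of them higher at that level, summed to 123 to 146 and 136 to 261 CPM. Of the 6 glucocorticoid targets, 2 were higher and 2 lower at that level, and they summed to 357 to 406 CPM in the sham group and to 391, 598, 386, 472 and 475 CPM in rats 6 to 10. The largest parts of the glucocorticoid sum were the 2 higher genes, Klf9 and Fkbp5, with means of 178 and 103 CPM over the 10 rats. The 2 lower genes, Tsc22d3 and Zbtb16, had means of 39.2 and 19.3 CPM and log2 fold changes of -0.32 and -0.43. The highest astrocyte and glucocorticoid sums were those of rat 7, one of the rats with high Cry1 and Cry2. The part of neuronal activity, of astrocyte content and of glucocorticoids in the levels of the clock genes was not tested.

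Of 28 further genes of the clock pathway, 21 were tested and 7 were not matched to a row. In the same edgeR test none of the 21 passed an adjusted p under 0.05. With the likelihood ratio test and with DESeq2, 2 of the 21, Dbp and Nfil3, passed it, beside 0.53% and 0.147% of the tested rows. In the quasi-likelihood test 5 passed an unadjusted p under 0.05, beside 9.86% of tested rows. The 3 higher ones were Nfil3, Bhlhe40 and Noct and the 2 lower ones Dbp and Tef. Their median absolute log2 fold change was 0.122, and the median log2 fold change was 0.05, with 13 above and 8 below 0. The kinases Csnk1d and Csnk1e, which mark PERIOD proteins for breakdown, differed between the groups by 0.0035 (SE 0.0662) and -0.11 (SE 0.114) on the log2 scale.

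Dbp, an output gene that CLOCK and BMAL1 drive through E-boxes, was counted at 107.3 to 170.1 CPM in the sham group and at 50.8 to 112.2 CPM in rats 6 to 10, a log2 difference of -0.91 (SE 0.176, adjusted p = 0.376, and 0.0044 with the likelihood ratio test and 0.0038 with DESeq2). Nfil3, a repressor at the same D-boxes, was counted at 6.92 to 10.3 CPM in sham and at 10.9, 43.1, 12.3, 34.9 and 24.3 CPM in stimulated rats 6 to 10, without overlap, a log2 difference of 1.58 (SE 0.328, adjusted p = 0.376, and 0.0047 with the likelihood ratio test and 0.0037 with DESeq2). Tef, a D-box activator, had means of 377.4 ± 10.8 and 306.5 ± 64.9 CPM (SD, n = 5 each) and a log2 difference of -0.30 (SE 0.126, adjusted p = 0.457), or -0.20 without rat 7. Bhlhe40, a repressor that competes for E-boxes, was counted at 138 CPM in rat 7 and 84.8 CPM in rat 9 beside a sham mean of 34.3 ± 5.36 CPM (SD, n = 5). Noct, which encodes a rhythmic phosphatase, was likewise highest in rats 7 and 9, at 100.4 and 61.7 CPM beside a sham mean of 35.6 ± 3.15 CPM (SD, n = 5). The log2 fold changes were 0.91 (SE 0.38, adjusted p = 0.454) for Bhlhe40 and 0.62 (SE 0.251, adjusted p = 0.447) for Noct. Without rat 7 they were 0.41 and 0.26, with unadjusted p-values of 0.169 and 0.116. The exact permutation test gave p = 0.286 for Bhlhe40 and 0.135 for Noct, beside 0.0159 for Dbp and for Tef and 0.00794 for Nfil3. Rorb, the ROR receptor gene that was tested, had means of 1.40 and 1.49 CPM and a log2 difference of 0.10 (SE 0.23, adjusted p = 0.913).

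**Figure D4:**
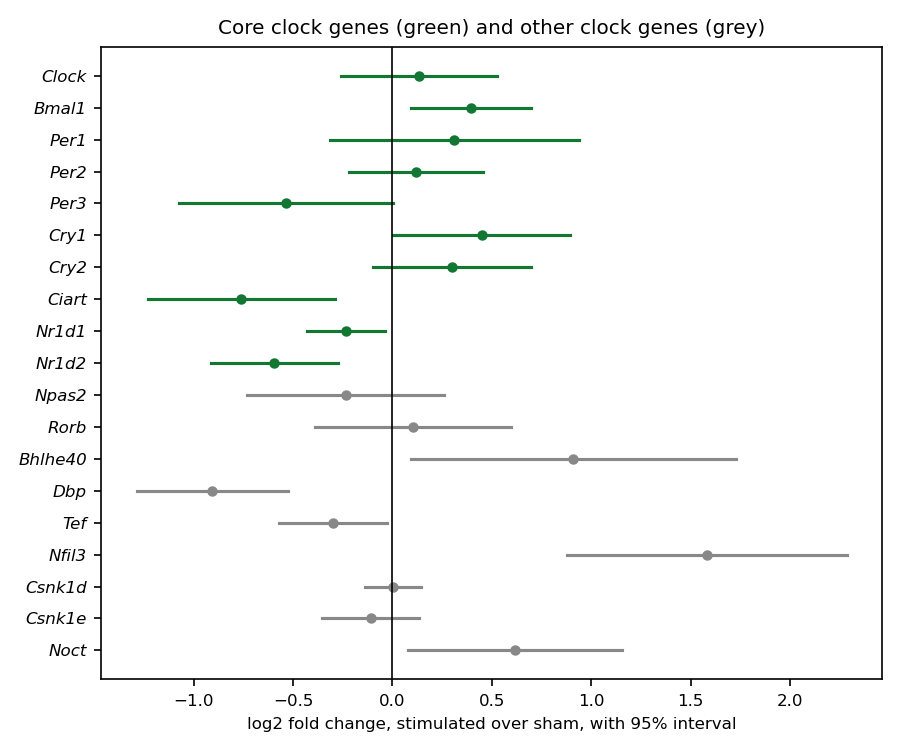
Log2 fold change, stimulated over sham (horizontal axis), of the 10 core clock genes (green) and the further clock genes named in the text (grey), with 95% intervals from edgeR without adjustment for the number of genes. The intervals of Ciart, Nr1d1 and Nr1d2 lie below 0 and those of Bmal1 and Cry1 above it.

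The genes whose levels varied most like those of each core gene from rat to rat were taken from 9677 features with a symbol and a mean of at least 5 CPM, by the Pearson correlation of log2 CPM over the 10 rats after the mean of each group was subtracted. The 3 closest per gene had correlations from 0.889 to 0.991, and 0 of these 30 were in either clock list. The clock genes are a very small part of the 9677 features, so this count does not show whether clock genes vary together. Between core genes themselves, the correlations ran from -0.66 (Ciart and Nr1d2) to 0.911 (Cry1 and Cry2). The values share the libraries, and the highest of so many correlations is high by selection. Cry1 was closest to Gpd1 (0.991), Arf6 (0.974) and Homer1 (0.972), and Cry2 to Arfgap2 (0.987), Lingo1 (0.983) and Tmem97 (0.979). Nr1d2 was closest to Cacna1c (0.974), Hipk1 (0.966) and Spag9 (0.948), and Nr1d1 to Susd4 (0.96), Abcc8 (0.956) and Vwa1 (0.95). Bmal1 was closest to Mrto4 (0.929), Ciart to Ppcs (0.944), Clock to Rims2 (0.957), Per1 to Rnf39 (0.967), Per2 to Ube2d3 (0.96) and Per3 to Bag2 (0.971).

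The log2 fold changes were recomputed under 22 alternatives, 10 of which left out 1 rat each. Nr1d2 and Ciart kept their direction and an unadjusted p under 0.05 in 22 of 22, with log2 fold changes of -0.66 to -0.50 for Nr1d2 and -0.98 to -0.64 for Ciart. The adjusted p of Nr1d2 ranged from 0.0575 (likelihood ratio test) to 0.661 (without sham rat 4) and that of Ciart from 0.11 (DESeq2) to 0.661 (without sham rat 4).

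**Figure D5:**
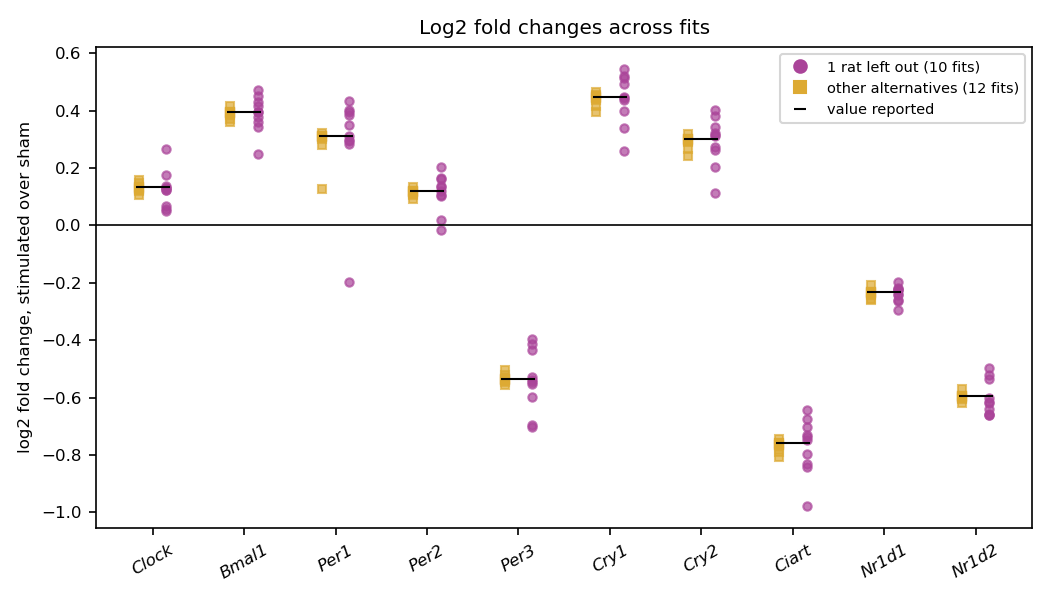
Log2 fold change, stimulated over sham (vertical axis), of the 10 core clock genes in each alternative. Circles leave out 1 rat, squares use another scaling, filter, tool or treatment of rows, and the line is the value given in the text. Per1 and Per2 are the genes with circles on both sides of 0, and the circle of Per1 at -0.20 is the one without rat 9.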

How the data were processed

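Messenger RNA of 10 rats was read in single reads of 36 cycles. The deposited values are raw counts of reads per RefSeq row. Per the methods of the study, the authors aligned reads to RN4 with BWA and counted them with their own script against an Ensembl annotation, while the rows carry RefSeq identifiers, a difference that is not explained. The study counts fewer stimulated rats for this assay than the labels do, so all 10 were used and each was left out in turn. The row of unaligned reads (32.8% to 37.1% of reads in sham and 32.0% to 45.1% in stimulated rats) was set aside. Rats 8, 9 and 10, at 41.4%, 42.9% and 45.1%, lay above every sham rat. Ribosomal RNA rows held 1.82% to 12.2% of aligned reads in sham and 3.03% to 5.64% in stimulated rats. Columns were matched to rats by number, with 0 columns of other samples.

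Rows with a summed count under the 30th percentile (46 reads) were left out, and 22447 were tested with edgeR 4.0.16 (R 4.3.3) with TMM factors, Benjamini-Hochberg adjustment over all of them and no covariate. Of these, 12970 had a symbol in the RefSeq gene table of GRCr8. Log2 CPM used a prior count of 2. Adjusted p-values are from this test unless an alternative is named. Exact permutation tests were computed in python 3.11.15 with numpy 2.4.6, and the calculation was checked on random numbers against scipy 1.17.1. Alternatives used DESeq2 1.42.0, limma 3.58.1, other scalings, other filters, other edgeR settings and rows of a symbol summed. All 10 genes were named, as were further clock genes with an unadjusted p under 0.05 and some chosen by name (Dbp, Tef, Npas2, Rorb, Bhlhe40; Hlf, Rora and Bhlhe41 had no matched row); Csnk1d and Csnk1e were added after their values were seen. A further clock gene is counted in the list but not reported here. The genes, the further clock list and the marker lists were chosen with earlier results of these data known.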

Additional observations from a re-analysis of the deposited data

Results flagged for a closer look

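The Per1 level of stimulated rat 9, 138.9 CPM, stood apart from its group. The next value was 50.0 CPM, and this gap covered 0.889 of the range of the 5 stimulated rats, above the critical value of 0.71 of Dixon's test. Of the 34 groups put to this test it was the 1 in which a rat stood apart, where chance gives about 1.7. The 34 did not hold every group reported here. Among those not tested, sham rat 3 had 29.0 Bmal1 reads per 100 Nr1d1 reads, beside 25.2 to 25.7 in the other sham rats. The endothelial sum of rat 10 was 261 CPM, beside 136 to 154 CPM in the other stimulated rats. The same rat held the highest Per2 level, 49.9 CPM, and the highest summed level of immediate early genes, 1621 CPM. The part of neuronal activity in the Per1 level was not tested.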

How the results depend on the processing

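The count of core genes past an adjusted p under 0.05 was 0 in all 22 alternatives. The count past an unadjusted p under 0.05 was 5, and 3 to 6 with 1 rat left out (3 without sham rat 4). Of the higher ones (2), 1 was left with upper quartile factors, with at least 10 counts in 4 samples and with limma-voom, and 1 to 2 with a rat left out. The lower ones (3) numbered 2 to 4 with a rat left out. In the test of each alternative, not the permutation test, Cry1 was past an unadjusted p of 0.05 in 12 of the 22. With rat 7, rat 9 or any 1 of the sham rats left out, Cry1 missed it. Per3, which missed it, was past it in 10 of the 22. Bhlhe40 missed it without sham rats 1, 2 or 3 or rats 7 or 9, and with DESeq2, limma-voom and the robust setting of edgeR. Noct missed it without sham rats 1 or 3 or rats 7 or 9, and with limma-voom. Tef missed it without sham rats 3 or 4 or rats 9 or 10, and with library size alone. Nr1d1 was past it in all but the alternatives with library size alone and without sham rat 4. With a rat left out, the log2 fold change of Per1 ranged from -0.197 (without rat 9) to 0.432 and that of Per2 from -0.016 (without rat 9) to 0.202. The differences of mean log2 CPM in the exact permutation test ranged from -0.20 (without rat 9) to 0.247 for Per1 and from -0.00198 (without sham rat 2) to 0.196 for Per2. The exact permutation p of Bmal1 was 0.0635 without sham rats 1 or 5 and 0.0556 without sham rats 2 or 4. Bmal1 reads per 100 Nr1d1 reads differed by 15.3 between the groups, by 11.04 to 18.9 with a rat left out and by 18.2 with the second row of Nr1d1, an alternative chosen after seeing the data. For the further clock genes, 2 passed an adjusted p under 0.05 with the likelihood ratio test (0.53% of all rows) and 2 with DESeq2 (0.147% of all rows), beside 0 in the quasi-likelihood test. Their unadjusted count (5) was 3 with limma-voom and 2 to 7 with a rat left out. The higher ones (3) numbered 1 with limma-voom and 1 to 5 with a rat left out, and the lower ones (2) numbered 1 with library size alone and 1 to 2 with a rat left out. The cause was not tested. No scaling moved the median of all rows by over 0.1 on the log2 scale. No paired analysis was possible because rats 1 to 5 and rats 6 to 10 share no numbers. The number of rats and, for Ciart and Clock, 65 to 268 and 74 to 161 reads per rat limit the precision.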
